A study of Mus musculus with 5 samples.

Results

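Lsd1 peaks that lay on no Gfi1 peak were examined in MG medulloblastoma. A peak was a member when it stood in the Lsd1 list of tumor 39, when Lsd1 peaks of tumor 41 covered at least 50% of its length, and when it shared 0 bp with any peak of the Gfi1 lists of both tumors. In all, 1528 of the 23458 Lsd1 peaks found in both tumors met this rule, which is 6.51% of them (exact 95% binomial interval 6.20% to 6.84%, counting error only). Members were thus chosen by the measured peak positions of all 4 lists, and nothing is read from this share. Of the other Lsd1 peaks found in both tumors, 3410 overlapped a Gfi1 peak of tumor 39 only, 1140 overlapped a Gfi1 peak of tumor 41 only and 17380 overlapped Gfi1 peaks of both.

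MG tumors grew from Prominin1+, lineage-negative stem cells, sorted from the cerebella of C57BL/6 pups aged 5 to 7 days. The cells received retroviral Myc and Gfi1 and were transplanted into the cerebella of immunodeficient NSG mice. All 4 libraries share both transgenes, and no library without Gfi1 was analysed here. Gfi1 and Lsd1 were each immunoprecipitated from frozen tissue of tumor 39 (replicate 1) and tumor 41 (replicate 2) with rabbit polyclonal antibodies, so that each factor had 2 replicates. Gfi1 was supplied by the virus. A whole tumor was used, so that host cells can be part of each sample.

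Lsd1, encoded by Kdm1a, is a demethylase that removes methyl groups from lysine 4 of histone H3. It has no sequence preference of its own and is brought to DNA by other proteins, mostly together with the corepressor CoREST. Gfi1 is a zinc-finger repressor that binds Lsd1 through its SNAG domain. REST, another zinc-finger repressor, recruits CoREST and keeps neuronal genes low outside of neurons by binding a long element named RE1.

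The 4 lists held 25078 to 36836 peaks, with the shortest one for Gfi1 in tumor 41 and the longest one for Gfi1 in tumor 39. They carry positions and a score but no read counts, so that the depth behind a peak is unknown. A missing Gfi1 peak therefore means that none was called, not that the protein was absent. The study does give mapped reads per library, and for each factor the library with the longer list had fewer of them. The part of library depth in the lists was not tested. Of the marker genes of other cells that the tumor could hold, 0 of 8 microglial and 0 of 8 endothelial genes had a Gfi1 peak at a transcription start site (TSS) in both tumors. In turn, 3 of 6 astrocyte and 2 of 8 oligodendrocyte genes had one, and so did 5 of 8 genes of the cerebellar granule lineage and 53.9% of all coding genes. No peak of any list was at a TSS of 7 of the 8 microglial and 4 of the 8 endothelial genes. This was also so for 2 of 6 astrocyte, 2 of 8 oligodendrocyte and 1 of 8 granule lineage genes, and for 33.6% of all coding genes.

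The central 300 bases of 3 members that stood among the 10 highest by Lsd1 score are given on the plus strand of mm10, with the letters read from RefSeq's GRCm38.p6. Capitals mark words that were searched for, except the short Gfi1 core AATC, which was left in lower case. In the first peak these were AGGGGGC, a word searched for CTCF, and AGATAA, a word searched for factors of the Gata family. In the second peak it was the RE1 word, which consists of TTCAGCACC and, after 2 free bases, of GGACAG. In the third it was the E-box CAGCTG of proneural factors and the left arm of RE1 alone, TTCAGCACC, which is read there on the minus strand. Xkr6 is shown because its intron held the highest member, Vrk3 because its peak held 2 RE1 words, and Arhgef10l because its peak held the left arm alone.
Xkr6 peak, chr14:63680981-63681280: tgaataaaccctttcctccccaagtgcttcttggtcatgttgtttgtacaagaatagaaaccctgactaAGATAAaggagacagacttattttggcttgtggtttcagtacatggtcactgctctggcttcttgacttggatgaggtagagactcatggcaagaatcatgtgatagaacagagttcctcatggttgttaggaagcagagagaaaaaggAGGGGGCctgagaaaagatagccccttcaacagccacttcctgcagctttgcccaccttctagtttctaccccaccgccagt
Vrk3 peak, chr7:44769915-44770214: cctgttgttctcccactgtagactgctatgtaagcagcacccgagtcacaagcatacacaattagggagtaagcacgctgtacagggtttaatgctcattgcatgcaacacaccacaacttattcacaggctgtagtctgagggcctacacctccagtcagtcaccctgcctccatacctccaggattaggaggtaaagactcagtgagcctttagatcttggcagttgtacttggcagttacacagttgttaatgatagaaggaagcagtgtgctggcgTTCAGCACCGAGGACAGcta
Arhgef10l peak, chr4:140440061-140440360: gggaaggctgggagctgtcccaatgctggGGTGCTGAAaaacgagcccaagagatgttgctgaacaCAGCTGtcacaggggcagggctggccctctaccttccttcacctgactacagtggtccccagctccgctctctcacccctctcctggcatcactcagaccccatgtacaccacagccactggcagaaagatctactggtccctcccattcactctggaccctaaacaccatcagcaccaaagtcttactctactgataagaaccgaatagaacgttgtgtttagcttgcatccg

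The RE1 word was found 21 times in 20 members. The 10 matches in the highest ranking of these peaks are shown with 6 flanking bases, 5′ to 3′ on the strand of the match and with the word in capitals, because the density of this word differed between members and other Lsd1 peaks. Genes are those with the closest TSS of a coding gene.
Vrk3, chr7:44770195-44770211, plus strand: ctggcgTTCAGCACCGAGGACAGctacac
Vrk3, chr7:44770403-44770419, plus strand: tattgcTTCAGCACCAAGGACAGcagaaa
Slc8a2, chr7:16147825-16147841, plus strand: aggtctTTCAGCACCGCGGACAGcgcccg
Rapgef1, chr2:29573770-29573786, plus strand: taggggTTCAGCACCACGGACAGcgccat
Celf5, chr10:81477742-81477758, minus strand: acgcgcTTCAGCACCGCGGACAGcggcac
Nectin1, chr9:43698619-43698635, minus strand: agcaatTTCAGCACCACGGACAGagtcca
Lingo1, chr9:56738452-56738468, minus strand: aatgcgTTCAGCACCACGGACAGcgccca
Kcnh2, chr5:24357613-24357629, minus strand: aagggtTTCAGCACCTCGGACAGaggcag
Meis3, chr7:16183888-16183904, minus strand: cggtgtTTCAGCACCGCGGACAGcaccca
Tti1, chr2:157970874-157970890, minus strand: gtcttcTTCAGCACCATGGACAGaaacac
The letters at the N positions varied from site to site.

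Members stood low in the Lsd1 lists. The score in tumor 39 had a median of 86.8 and ran from 50.04 to 826, and in tumor 41 the median was 94.1, from 50.02 to 3100. As a rank within the list, the median member was at percentile 23.1 in tumor 39 and at 27.2 in tumor 41, whereas Lsd1 peaks with Gfi1 in both tumors were at 70.9 and 74.4. When the Lsd1 peaks of tumor 39 were split by score into 5 bins of equal size, members made up 25.6% of the peaks found in both tumors in the lowest bin, 15.1% in the second, 5.13% in the third, 0.376% in the fourth and 0.0165% in the highest, where there was 1 member. In 29 members the peak reached the upper 50% of the score in both lists. Ranks in tumor 39 and tumor 41 went together weakly among the members, with a Spearman coefficient of 0.254 over 1528 peaks, against 0.843 over the 17380 peaks with Gfi1 in both tumors. These coefficients are descriptions, since the peaks share their 2 libraries and the members span a narrower range of ranks.

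**Figure D1:**
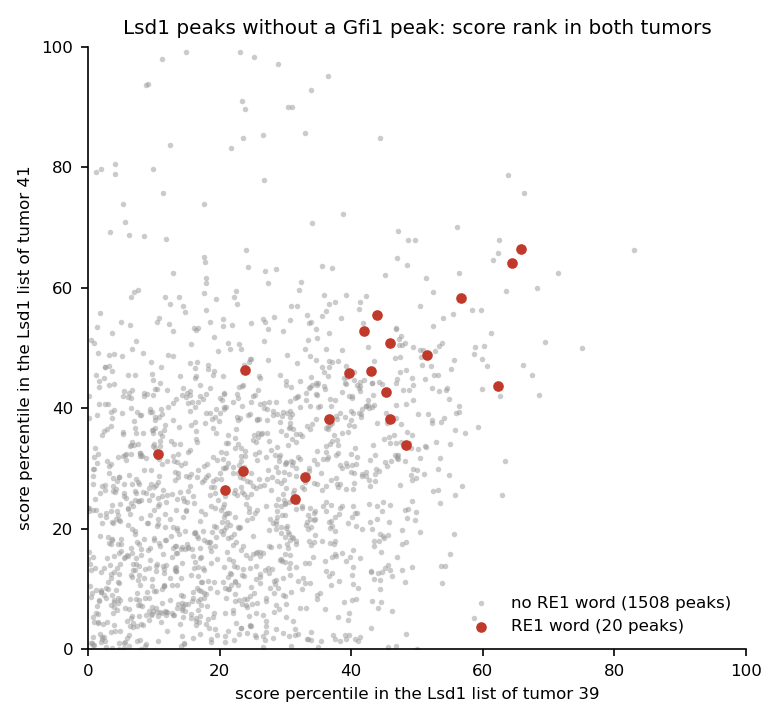
Each point is a member, placed by its score percentile in the Lsd1 list of tumor 39 (x axis) and of tumor 41 (y axis). The 20 members with the RE1 word, in red, have median percentiles of 43.5 and 44.8, whereas the other 1508, in grey, have 22.9 and 27.0 and fill the lower left corner.

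Some members had a partner in tumor 41 that reached a Gfi1 peak. This was so in 111 of the 1528, although the peak of tumor 39 overlapped none. In these 111 the median score percentile was 18.3 in tumor 39 and 54.95 in tumor 41, and the median distance to Gfi1 was 224 bp. In the other 1417 it was 4366 bp. This concerns 3 of the 10 highest members and 4 of the 5 highest at the TSS of a coding gene, so it is given beside each of them.

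The highest member lay in an intron of Xkr6, which encodes a membrane protein of the XK family, at chr14:63679906-63682355. Its score was 826 in tumor 39 and 465 in tumor 41, at percentiles 83.0 and 66.3, and the closest Gfi1 peak was 71295 bp away. It was high among the members in both tumors and far from any Gfi1 peak. In an intron of Vrk3, a gene for a kinase-like protein, a peak at chr7:44768887-44771242 scored 403 and 471, at percentiles 65.8 and 66.5, and lay 19413 bp from Gfi1. An intron of Slc8a2, the gene of a sodium and calcium exchanger of the brain, held a peak at chr7:16146001-16148526 that scored 379 and 412, at percentiles 64.4 and 64.1. Here a Gfi1 peak was 530 bp away in tumor 39 and 15844 bp away in tumor 41. Both Vrk3 and Slc8a2 carried the RE1 word.

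Between genes and over 1000 bp from a TSS, the highest member was 6085 bp from the TSS of Calm3, which encodes calmodulin, and scored 518 and 377. Next came a peak 4719 bp from Ap3d1, a subunit of the AP-3 adaptor of vesicle transport, with scores of 350.2 and 509.5. Near Hap1, the gene of huntingtin-associated protein 1, a member that ranked above both, also with its midpoint between genes, scored 411 and 767 and lay 26 bp from the TSS of the predicted gene Gm10039. The peak assigned to Arhgef10l lay inside the predicted gene Gm13026 and 127159 bp from the TSS of Arhgef10l, with scores of 348 and 452. None of these 4 had a tumor 41 partner that reached Gfi1.

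The other 3 of the 10 highest did. A peak over the TSS of Fxyd7, a regulator of the sodium pump in brain, scored 369.5 and 900 and was 795 bp from Gfi1. The peak in 2900026A02Rik scored 128 in tumor 39 and 2129 in tumor 41, where its partner ran over chr5:113150498-113158851. An intron of Nfatc2, a calcineurin-regulated transcription factor, held a peak with scores of 168 and 1188. All 3 ranked higher in tumor 41 than in tumor 39. Scaf1 and Jade1 were the extreme cases at a TSS, with scores of 86.5 and 71.2 in tumor 39 against 3100 for both in tumor 41, and Cacnb1, a calcium channel subunit, had 118 and 1796. Only Dmtn, which encodes the actin-binding dematin, was free of this among the 5 highest at a coding TSS. It scored 332 and 230, yet its closest Gfi1 peak was 15 bp away in tumor 39 and 1394 bp away in tumor 41.

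Members lay at promoters less often than most other Lsd1 peaks. Within 1000 bp of a TSS, the distance taken here as being at a promoter, lay 255 members, or 16.7% (14.9% to 18.7%), whereas 60.8% of all Lsd1 peaks found in both tumors did, and 70.9% of those with Gfi1 in both. Lsd1 peaks with Gfi1 in tumor 39 only were at a TSS in 44.2% and those with Gfi1 in tumor 41 only in 15.4% (13.3% to 17.6%), an interval that overlaps that of the members. Of the genome, 6.05% is within 1000 bp of a TSS, so the share of members was low beside other Lsd1 peaks, not beside the genome. The median member was 5932.5 bp from a TSS. The share rested on the Gfi1 list of tumor 39. Without that list 4938 Lsd1 peaks had no Gfi1 peak and 35.7% of them were at a TSS, while without the Gfi1 list of tumor 41 it was 16.1% of 2668.

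Distance to a TSS was not used by the rule, but the positions of Gfi1 peaks were. Gfi1 peaks were at a TSS of 53.9% of coding genes in both tumors. Leaving out Lsd1 peaks on Gfi1 peaks thus also leaves out many at promoters, and the low share is a description. Score and Gfi1 overlap went together as well, so the share was also taken within the score bins, which do not set this aside. From the lowest to the fourth bin it was 18.2%, 15.7%, 14.9% and 18.2% for the members, and 39.1%, 42.0%, 53.2% and 74.1% for peaks with Gfi1 in both tumors. The share among members was about level over these bins, whereas it went up with score where Gfi1 was present in both tumors. With Gfi1 in tumor 39 only it was 43.8%, 44.3%, 45.1% and 39.02% over the same bins. With Gfi1 in tumor 41 only it was 16.1%, 15.1%, 16.5% and 8.33%. A share that did not rise with score was thus not particular to members. The tumors were then used as replicates, by splitting all Lsd1 peaks of a tumor by the Gfi1 list of that tumor. In tumor 39, 14.8% of the 6971 Lsd1 peaks without Gfi1 and 61.9% of the 23396 with Gfi1 were at a TSS. In tumor 41 it was 31.3% of 12406 and 62.5% of 20807. The share without Gfi1 minus that with Gfi1 was -39.2 ± 11.2 percentage points (SD, n = 2 tumors), a difference larger than the spread. With 2 pairs an exact two-sided permutation test within tumors cannot give a p-value below 0.5, so none was run here or for the measures that follow.

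**Figure D2:**
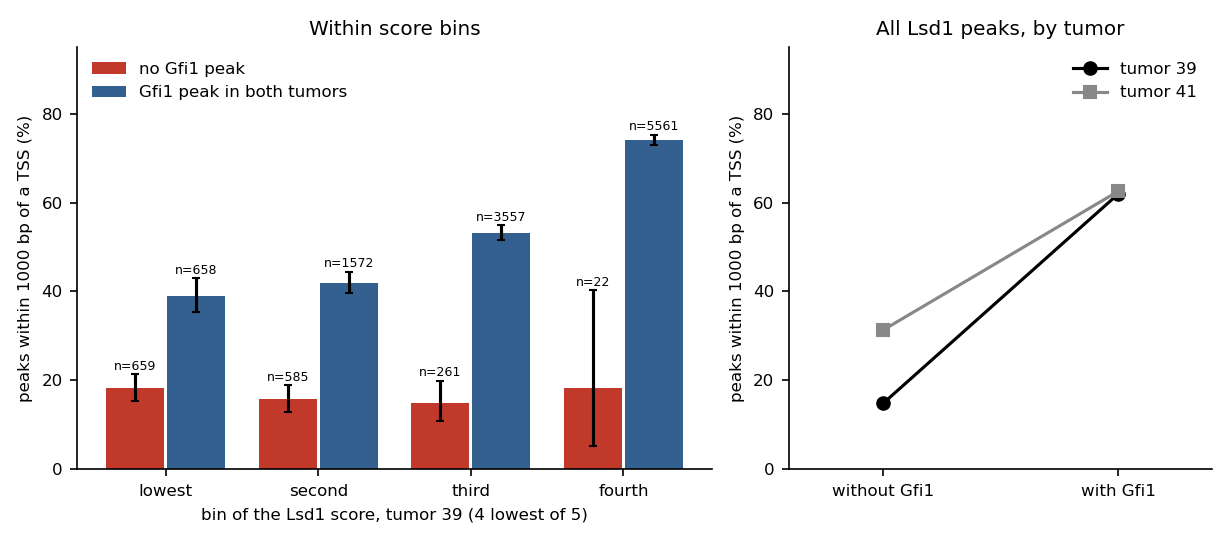
Left, the share of Lsd1 peaks within 1000 bp of a TSS (y axis, percent) in the lowest 4 of 5 bins of the tumor 39 score (x axis), for members (red) and peaks with Gfi1 in both tumors (blue), with exact 95% binomial intervals as bars and the number of peaks above. Right, the same share for all Lsd1 peaks of tumor 39 (14.8% without and 61.9% with Gfi1) and tumor 41 (31.3% and 62.5%), joined by lines.

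Members were mostly intronic. By the peak midpoint, 54.3% lay in introns, 11.1% in exons and 34.6% between genes, against 41.6%, 35.0% and 23.4% of the peaks with Gfi1 in both tumors. Peaks with Gfi1 in tumor 41 only had more in introns, 60.6%, and fewer in exons, 9.04%, so that this place is not particular to members. Introns make up 41.3% of the genome, exons 4.84% and the space between genes 53.9%. The intron share was higher without Gfi1 in both tumors, by 8.91 ± 4.69 percentage points (SD, n = 2), and the exon share was lower, with differences of -22.3 and -9.75 points in tumors 39 and 41. This difference was smaller once promoters were set aside. Among peaks over 1000 bp from a TSS, introns held 54.6% of the members and 51.7% of the peaks with Gfi1 in both, and in the split by tumor the sign of the difference turned, with 3.85 points in tumor 39 and -0.677 in tumor 41.

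Peaks without Gfi1 were narrow, with a median width of 1177 bp (quartiles 995.5 and 1504 bp) against 2371 bp for those with Gfi1 in both tumors. The difference by tumor was -979 bp and -996 bp. A narrow peak has less room to overlap another, so that width bears on the rule itself. The widest members were assigned to Rtl6 with 4929 bp, to Galnt2, whose enzyme starts O-linked sugar chains, with 4600 bp, and to Rxra, a retinoid receptor, with 4118 bp. All 3 lay within 300 bp of a Gfi1 peak of tumor 39, at 157, 129 and 288 bp.

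CpG content was low in the members. CpG pairs, which gather unmethylated in most active promoters, stood at a median of 0.216 of the number expected from the base composition, against 0.462 in peaks with Gfi1 in both tumors. Peaks with Gfi1 in tumor 41 only had 0.220, close to the members, and those with Gfi1 in tumor 39 only had 0.319. In the split by tumor the median differed by -0.190 (without minus with Gfi1) in tumor 39 and by -0.139 in tumor 41, again more than the spread. At a TSS the contrast was wide. Of the 255 members there, 5.10% lay at a TSS whose surrounding 500 bp on either side had a ratio above 0.6, whereas 73.4% of the 12322 peaks with Gfi1 in both tumors did. A coding gene owned the closest TSS in 67.1% and 92.8% of these, and 57.6% and 94.8% covered the TSS itself. Peaks with Gfi1 in tumor 41 only were again like the members, with 2.86% above the ratio, 64.6% at a coding gene and 57.1% over the TSS. Away from a TSS the ratio was 0.213 in members and 0.261 in peaks with Gfi1 in both, and the difference by tumor, -0.0296 ± 0.0262 (SD, n = 2), was close to its spread.

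The content of G and C did not separate the peaks in the same way. Its median was 49.5% in the members, 53.9% with Gfi1 in tumor 39 only, 47.5% with Gfi1 in tumor 41 only and 52.3% with Gfi1 in both, where the genome has 41.7%. By tumor the difference was -4.39 points in tumor 39 and 0.424 in tumor 41, so that its sign turned and it was within the spread. Lsd1 peaks with Gfi1 in a single tumor thus differed in base composition between the tumors, and its part in the result was not tested. Repeats masked in the reference made up 13.6% of the median member, close to the 13.5% with Gfi1 in both tumors and far under the 36.4% of the genome.

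**Figure D3:**
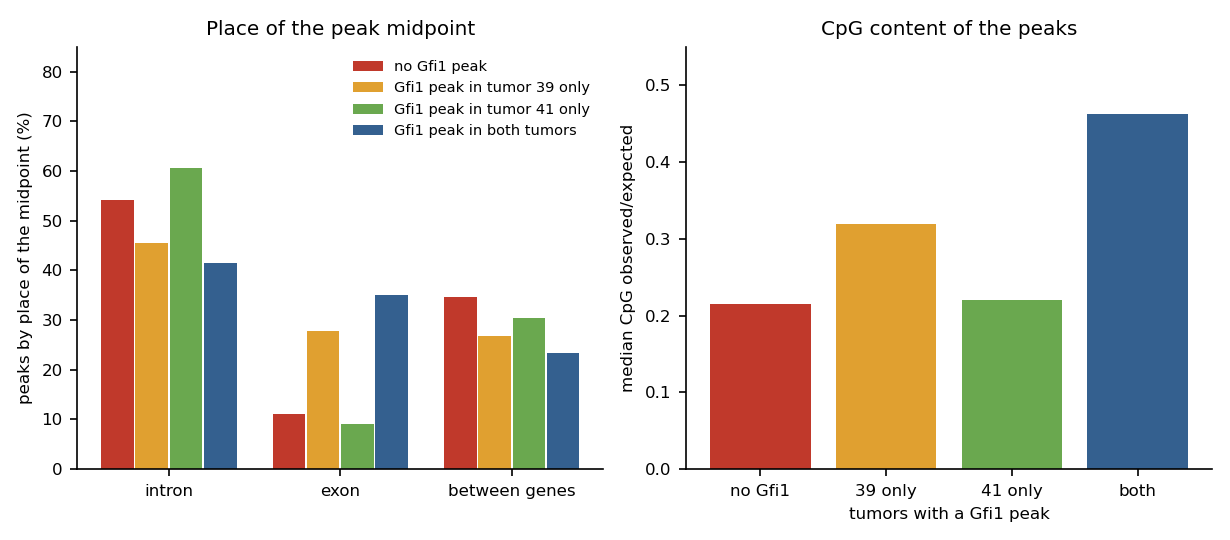
Left, the share of peaks (y axis, percent) with the midpoint in an intron, an exon or between genes, for members (red) and for Lsd1 peaks with Gfi1 in tumor 39 only, tumor 41 only or both. Right, the median observed over expected CpG of the same classes, which is 0.216 in members and 0.462 with Gfi1 in both tumors.

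The RE1 word was denser in members than in other Lsd1 peaks, most clearly over 1000 bp from a TSS. Among the 23 words searched, 1 was the left arm of RE1, TTCAGCACC. It was in the central 300 bp of 23 of 1273 members over 1000 bp from a TSS, or 1.81% (1.15% to 2.70%). It was in 0.356% (0.211% to 0.562%) of the like peaks with Gfi1 in both tumors and in 0.371% of 32851 RefSeq promoters of the same length. By tumor the contrast was smaller, with 0.993% without and 0.482% with Gfi1 in tumor 39 and 0.821% and 0.461% in tumor 41. The 17-base RE1 word, in which GGACAG follows the left arm after 2 free bases and which was chosen after the left arm had been seen, was then searched on both strands of whole peaks. It contains the left arm, so the 2 counts overlap. It was in 20 members, or 1.31% (0.801% to 2.01%), and in 20 of the 17380 peaks with Gfi1 in both tumors, or 0.115% (0.0703% to 0.178%), while 0.252% of all Lsd1 peaks found in both tumors held it. Per length of peak this is 10.6 matches per Mb in the members, 3.04 with Gfi1 in tumor 39 only, 1.26 with Gfi1 in tumor 41 only and 0.437 with Gfi1 in both, so that the density in members was 24.3 times the last. Over 1000 bp from a TSS the densities were 11.5, 1.902, 1.495 and 0.472 per Mb in the same order. At a TSS members had 5.94 per Mb (2 of 255 peaks), close to 4.52 with Gfi1 in tumor 39 only (11 of 1506). There it was 0 with Gfi1 in tumor 41 only and 0.425 with Gfi1 in both. Each of the 4 lists bore on the share in members, which was 0.749% without the Gfi1 list of tumor 39, 0.825% without that of tumor 41, 0.432% without the Lsd1 list of tumor 39 and 0.595% without that of tumor 41.

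Both tumors showed this difference in their full lists, which hold the members or their partners. Of the 35 matches in tumor 39 peaks without Gfi1, 21 were those of the members. The word was chosen on these peaks, so the split by tumor is a description and not a separate check. In tumor 39 the word stood at 4.04 per Mb in Lsd1 peaks without Gfi1 and at 0.647 per Mb in those with Gfi1, and in tumor 41 at 2.89 and 0.451 per Mb. The mean difference was 2.92 ± 0.672 per Mb (SD, n = 2), which is larger than the spread. A difference was also seen in the second to the fourth score bin. In the second bin 1.20% of 585 members and 0 of 1572 peaks with Gfi1 in both tumors had the word. In the third it was 3.45% of 261 and 0.141% of 3557, and in the fourth 13.6% of 22, which is 3 members, and 0.162% of 5561. In the lowest bin 1 of 659 members and 0 of 658 peaks with Gfi1 in both had it, which shows no difference. With Gfi1 in tumor 39 only the share was 0.104%, 0.312%, 0.739% and 2.44% from the lowest to the fourth bin. A rise with score over these bins was thus not particular to members. With Gfi1 in tumor 41 only it was 0 in the lowest 3 bins and 1.67% of 60 peaks in the fourth. A count of 0 is a count in these lists, not a limit on binding.

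Seen from the genome, the word occurred 195 times, 82 times in a peak of any of the 4 lists and 63 times in Lsd1 peaks of both tumors. Of these 63, 27 lay in no Gfi1 peak, 15 in a Gfi1 peak of tumor 39 only, 2 in that of tumor 41 only and 19 in all 4 lists. Of the 71 Lsd1 peaks of tumor 39 that held the word, 52.1% (39.9% to 64.1%) overlapped a Gfi1 peak of that tumor, while 77.0% of all its Lsd1 peaks did. In tumor 41 it was 34.3% (23.2% to 46.9%) of 67 peaks, against 62.6%. In a Gfi1 peak without an Lsd1 peak the word occurred 2 times.

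**Figure D4:**
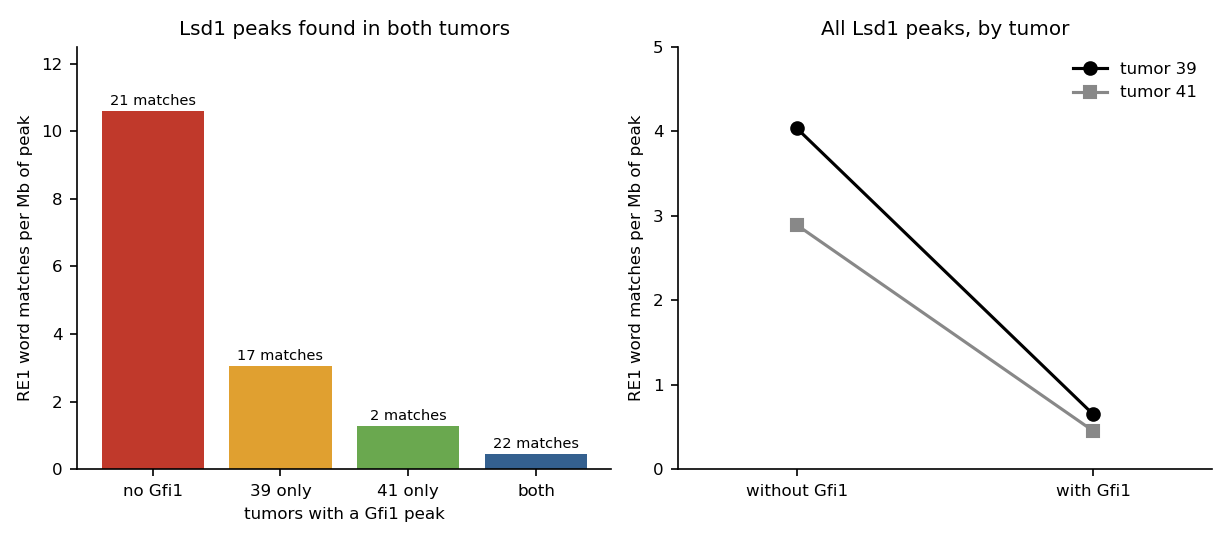
Matches of the RE1 word per Mb of peak (y axis). Left, Lsd1 peaks found in both tumors by the tumors that had a Gfi1 peak, from 10.6 per Mb in members to 0.437 with Gfi1 in both, with the number of matches above the bars; right, all Lsd1 peaks of tumor 39 (4.04 without and 0.647 with Gfi1) and tumor 41 (2.89 and 0.451), joined by lines.

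Members with the word stood higher in the Lsd1 lists than the rest. Their median percentiles were 43.5 and 44.8, against 22.9 and 27.0, and 12 of the 20 were among the 200 highest members. None had a tumor 41 partner that reached Gfi1, and their median distance to Gfi1 was 7714.5 bp. The word lay near the middle of the peak, at a median of 165 bp from the midpoint, against 299 bp for the 22 matches in peaks with Gfi1 in both tumors, whose peaks are wider. By place, 9 of the 20 were between genes, 8 in introns and 3 in exons, and 2 were at a TSS.

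The genes closest to these 20 members, named here after the word had been found, were read with their scores in tumors 39 and 41. Slc12a5, which encodes the chloride exporter KCC2 of mature neurons, had a member 1801 bp from its TSS with scores of 178 and 132. Neurod2, a transcription factor of neuronal differentiation, had one at 14643 bp with scores of 128 and 131. Nova2 and Celf5 encode neuronal RNA-binding proteins, and their members scored 195 and 115, and 348 and 161. Lingo1, whose protein sits on neurons and restrains myelination, had an intronic member with scores of 165 and 264, and Kcnh2, a potassium channel, had one of 178 and 214. Lhx5 and Meis3, homeobox genes of the developing nervous system, had members of 142 and 176, and of 154 and 233. Brsk2, a kinase of neuronal polarity, was at 110 and 88.7, and Elfn1, a synaptic protein, at 82.1 and 92.5. The remaining genes were Vrk3, Slc8a2, Rapgef1, Nectin1, Tti1, Gja10, Disp3, Gm11634, Lin28a and Sec14l3. Some distances were long, with 29362 bp to the TSS of Lingo1, 24815 bp to that of Nova2 and 70078 bp to that of Elfn1. For Nova2 and Elfn1 a predicted gene, Gm26821 and Gm43704, had a closer TSS. The share of neuronal genes among these 20 was not set against all coding genes, so it was not tested. Closest genes are assignments by distance, and no expression was measured in these libraries.

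Others of the 23 words were compared in the same way, and not all of them are given here. The Gfi1 word AATCACNGC was in 0.786% of members and 0.850% of peaks with Gfi1 in both tumors, counted in the central 300 bp of peaks over 1000 bp from a TSS, and the intervals overlap. By tumor it was lower without Gfi1 in both, 0.606% against 0.662% in tumor 39 and 0.657% against 0.923% in tumor 41. The word CACGTG, the E-box bound by Myc, was in 5.11% (3.96% to 6.46%) and 7.59% (6.88% to 8.36%), and by tumor it was lower without Gfi1 in both, 6.26% against 7.14% and 6.18% against 7.33%. The SP and KLF word GGGCGGGG was in 2.28% and 4.59%, and was lower without Gfi1 in both tumors as well, 1.80% against 4.47% and 3.601% against 4.10%. The AP-1 word TGAGTCA was in 9.19% and 7.08%, but by tumor the order turned, with 8.87% against 6.92% in tumor 39 and 7.19% against 7.41% in tumor 41. The E-box CAGATG of proneural factors was in 28.6% and 23.4%, and by tumor in 27.4% against 24.4% and 25.9% against 24.98%. The word ACATTCCA, searched for TEAD factors, was also more frequent in members, in 2.20% (1.47% to 3.16%) against 1.13% (0.855% to 1.46%). It was not split by tumor. All of these are matches of letters, and a match is not a bound site.

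Distances to Gfi1 were short for many members. The median was 3632.5 bp, 260 members lay within 500 bp of a Gfi1 peak and another 147 within 1000 bp, and 44 were over 100 kb away. The closest Gfi1 peak came from tumor 39 for 962 members and from tumor 41 for 565. Without the Gfi1 list of tumor 39 the median was 7405 bp. The rule sets the lower limit, so that these are descriptions. At the edge of the rule, the member at chr4:12134547-12135737 touched a Gfi1 peak with a gap of 0 bp, and the Lsd1 peak at chr17:86966712-86967901, left out, overlapped Gfi1 by 2 bp. The member at chr13:56772534-56773953 was covered by tumor 41 peaks over 50% of its length, and the peak at chr9:62553944-62555301 near Coro2b, left out, over 49.7%. Scores of these 4 were between 73.2 and 104 in tumor 39.

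**Figure D5:**
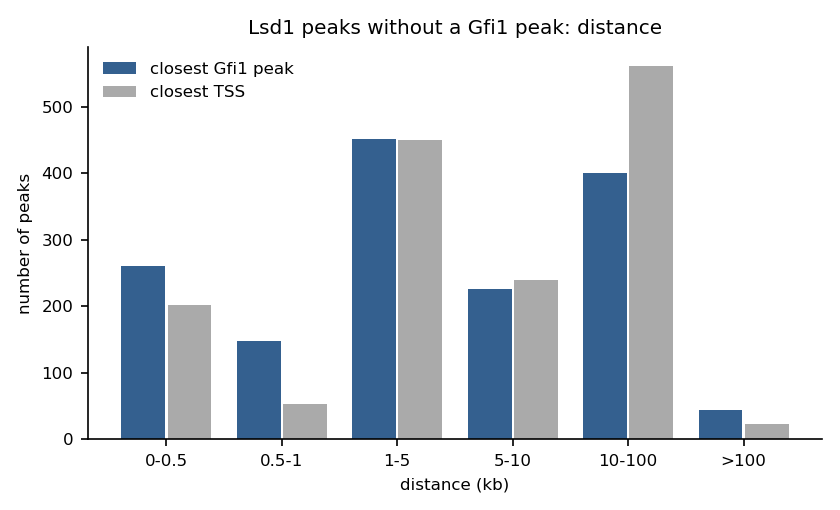
Number of members (y axis) by distance in kb (x axis) to the closest Gfi1 peak of both tumors (blue) and to the closest TSS (grey). The bin of 1 to 5 kb holds 451 members by distance to Gfi1 and 450 by distance to a TSS.

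The 1528 members were closest to 1287 of 21911 coding genes, which is 5.87%. Members were mostly single, with 1096 genes closest to 1 member. Agap1 was closest to 6, Tspan9 to 5, and Foxk1, Lingo1, Nfatc2 and Wwc1 to 4. Agap1 spans 442812 bp, and a long gene or a wide gap between genes takes in more peaks. Of the 1079 genes closest to a member over 1000 bp from a TSS, 79.0% had a Gfi1 peak at their TSS in both tumors, against 53.9% of all coding genes and 79.2% of the 2991 genes closest to a like Lsd1 peak with Gfi1 in both. Most genes near a distal member thus had a promoter with a Gfi1 peak. The 2 gene groups share genes, and their sizes and neighborhoods were not matched.

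Among the gene lists, 9 of 30 genes of the Notch, BMP, Wnt and hedgehog pathways and 7 of 30 of axon guidance were closest to a member, with 5.87% over all coding genes. These lists also lie near peaks with Gfi1 in both tumors, in 24 of 30 genes each, against 56.3% of all. Rbpj, the DNA-binding partner of Notch, had a member between genes that scored 86.8 and 133 and lay 88075 bp from Gfi1. Smad6, an inhibitor of BMP signaling, had an intronic member with 158 and 208. The member assigned to Tcf7l2, a Wnt effector, scored 168 and 76.6 and lay in the gene Vti1a, 162443 bp from the TSS of Tcf7l2. The other genes of these pathways were Notch2, Smad3, Smad7, Axin2, Ptch1 and Gli2. Unc5a, a netrin receptor, had an intronic member with 264 and 576.5, at percentiles 56.0 and 70.1, and 1 between genes with 121 and 190.4. Ntn1, the gene of its ligand netrin 1, had 208 and 113 in an intron, 51753 bp from Gfi1, and the others were Slit1, Unc5b, Sema3a, Nrp2 and Epha4.

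Of 24 genes for Lsd1 complex members and known partners, Rreb1, Gse1, Ctbp1 and Ctbp2 were closest to a member, with 5.87% over all coding genes. Of these 24, 21 were closest to a peak with Gfi1 in both tumors, against 56.3% of all. Rreb1, a zinc-finger factor, had intronic members with scores of 144 and 150.5, and of 118 and 52.8. Gse1, whose protein is found with CoREST, had 101 and 113. Sox9 and Hes1, of 12 genes of neural stem cells, were closest to members that lay in noncoding genes, and the higher one for Sox9 was 378052 bp away. Of 18 genes taken from the published work on these tumors, Barhl1 was closest to a member with 168 and 166, which lay in the gene Cfap77, and Nfia to 2 low ones with 71.3 and 73.6, and with 52.3 and 61.2. Scn8a was closest to a member among 30 ion channel and synaptic genes, and 0 of 12 AP-1 and immediate early genes were, counts near the 5.87% over all coding genes.

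The lists for other cell types are short, and their counts stand beside the 5.87% over all coding genes. Members were closest to 1 of 8 microglial genes, C1qa, with scores of 185 and 132, and to 2 of 8 endothelial genes, Cdh5 and Erg. The higher member at Cdh5, the cadherin of vessel walls, scored 313 and 192 and was 47157 bp from its TSS, and that at Erg scored 81.5 and 76.4. Gja1 was so of 6 astrocyte genes, Mbp of 8 oligodendrocyte genes and Barhl1 of 8 genes of the granule lineage. The members at Gja1 and Mbp scored low, with 55.8 and 53.0, and with 90.4 and 66.7. The part of host cells in these peaks was not tested.

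By chromosome, the share of Lsd1 peaks that were members ran from 5.10% on chromosome 10 to 8.58% on chromosome 15 among autosomes and was 2.19% (0.948% to 4.26%) on the X, where 8 of 366 peaks were members. On the X, 99 of the 366 had Gfi1 in tumor 39 only and 2 in tumor 41 only. The part of the number of X chromosomes in each tumor was not tested. Along the genome members were scattered. With a gap of at most 10 kb, 1377 stood alone, 74 pairs were found and 1 run held 3.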

How the data were processed

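Gfi1 and Lsd1 ChIP-seq of MG tumors 39 and 41 gave 4 peak lists. Per the labels and the methods of the study, the authors used BWA 0.6.2 for alignment to mm10 and Picard for merging and removal of duplicates, and MACS at default settings then compared each library with input chromatin. The deposited lists hold a position and a score per peak, whose definition is not given in the sources used here, so it was used only as a rank within a list. The listed input is a pool of MGB tumors (Myc and Gfi1b) and was not analysed here. Depth per peak is unknown, and intervals are exact binomial ones at 95% for counting error only.

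Overlaps, distances to TSSs (132666 separate ones of GENCODE M21) and words on both strands of GRCm38 were computed with pandas 2.3.3, scipy 1.17.1 and numpy 2.4.6 under Python 3.11.15, in scripts tested on simulated data. The study used another GENCODE release. Same-numbered libraries come from the same tumor, so measures were compared within tumors and given as mean ± SD (n = 2). Peaks are not replicates, so no test was run over them. Named peaks were the 10 highest by mean score percentile over both Lsd1 lists, the 5 highest at a coding TSS, in introns and between genes, the 3 widest, up to 3 for each gene list and genes with most members. The members, lists and words were chosen with earlier results of these data known, and the 17-base RE1 word, the partner check and the genes named for RE1 were added after the peaks had been seen. Alternatives varied replicate overlap, score, Gfi1 set, pairing, TSS window and word.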

Additional observations from a re-analysis of the deposited data

How the results depend on the processing

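Of the 99 values recomputed with 1 choice changed, 58 moved by less than the SD between tumors (for the count, by less than 1.5 times) and 41 moved further. Replicate numbers mark tumors, and with this pairing as a block (tumor 39 peaks set against Gfi1 of tumor 39, their partners against Gfi1 of tumor 41) there were 1454 members, and no other value moved. Members numbered 843 at a replicate overlap of 80%, 6904 when only Gfi1 peaks found in both tumors counted, and 620 and 29 in the upper 80% and 50% of the Lsd1 score. With 1 library left out they numbered 2668 to 5793. The share at a TSS was 34.8% with only Gfi1 peaks found in both tumors and 46.1% for a window of 5000 bp, and 14.7% to 35.7% with 1 library left out. The width, whose SD between tumors was small, was 1204 bp and 1089 bp at an overlap of 1 bp and 80%, 1045 bp for tumor 41 peaks, 1390 bp with only Gfi1 peaks found in both tumors, 1434.5 bp and 1885 bp in the upper 80% and 50% of the score, and 971 bp to 1338 bp with 1 library left out. The distance to Gfi1 was 7020 bp without peaks within 1000 bp of Gfi1, 10460.5 bp with only Gfi1 peaks found in both tumors, 4859 bp in the upper 50% of the score and 3099 bp to 7405 bp with 1 library left out. The intron share was 34.5% in the upper 50% of the score, 40.9% for peaks wholly in introns and 48.2% to 57.0% with 1 library left out. The RE1 share was 1.90% at an overlap of 80%, 1.43% without peaks within 1000 bp of Gfi1, 0.594% with only Gfi1 peaks found in both tumors, 3.06% and 10.3% in the upper 80% and 50% of the score, 1.41% with partners free of Gfi1, 2.09% and 2.03% for a word without the first T, with a free base after TCAG and with a C added, and for a word without the first T and the last G, and 0.432% to 0.825% with 1 library left out. For these words the peaks with Gfi1 in both tumors gave 0.207% and 0.242%. The causes were not tested. Unknown depth per peak limits every call of a missing Gfi1 peak.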
